A study of Homo sapiens with 10 samples.

Results

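NOTCH1, NOTCH2, NOTCH3, JAG1, YAP1, LATS1 and LATS2 are genes of the Notch and Hippo pathways, and their m6A peaks were compared between colon cancer cell lines. A peak was counted for a gene when its summit, the position of highest signal, lay in a fixed span of hg19 around that gene. The spans gave 27 of the 38106 peaks deposited for 5 established human lines, and 5 of the 7 genes had a peak in any list. The assay, MeRIP-seq, used an antibody against N6-methyladenosine (m6A) to pull modified fragments out of total RNA of cultured cells, and the labels pair each pull-down with an unenriched input. HCT116, HT29 and HCT15 are labelled colorectum, COLO320DM and COLO205 are labelled colon, and all were grown in the same medium. Each line had 1 immunoprecipitation (IP) and 1 input library, so differences between lists compare these libraries and no test between lines was possible. The recovered depth of the IP libraries was 1.38 to 2.99 M reads (M for mega) outside HCT15. It counts the reads behind the caller's background, after any filtering of reads, and may differ from the sequenced depth. HCT15 has the shortest list, at 917 peaks, and its depth was not recovered here. A peak list holds no RNA levels, so the labelled tissue was not checked against marker genes.

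In the Notch pathway a ligand such as JAG1 on one cell binds a NOTCH receptor on its neighbour. The receptor is then cut, and its inner part moves to the nucleus and switches on target genes. In the Hippo pathway the kinases LATS1 and LATS2 phosphorylate YAP1, a transcriptional coactivator, and keep it out of the nucleus. Both pathways act in the renewal and differentiation of the intestinal epithelium. m6A is the most common internal modification of mRNA and is found most often near stop codons and in long internal exons, where it affects mRNA stability and translation.

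The 5 lists held unequal numbers of peaks for these genes. HCT116 had 10 peaks among 9418, HT29 had 4 among 8941, COLO320DM had 7 among 8832 and COLO205 had 6 among 9998. HCT15 had 0 among 917, which allows a share of up to 0.327% of its list taken as 3 counts, and of 0.401% as the upper bound of the exact 95% interval. The shares in the other lists, from 0.0447% in HT29 to 0.106% in HCT116, lie below both limits, so a lower share in HCT15 was not detectable with so short a list. Peaks were present at 5 of the 7 genes in HCT116 and in COLO320DM, at 4 in COLO205 and at 3 in HT29. NOTCH3 and LATS1 had no peak in any list. A missing peak means that none was called, not that the RNA carried no m6A or was absent.

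Most of the peaks sat towards the ends of the genes. All distances here are from a summit to a bound of the span, on the side of the transcript's start or end. Of the 27 peaks, 17 lay within 5 kb of the bound on the transcript-end side and 6 within 1 kb of the bound on the start side. The other 4 were 3 LATS2 peaks of HCT116 and 1 YAP1 peak of COLO320DM, each at a position that no other list held. These counts take a shared position once per list, and the 27 peaks make up 13 separate regions. The same shares over other genes were not measured. The spans were 0.042 kb (NOTCH3) to 1.38 kb (NOTCH1) longer than the RefSeq genes of the newer build GRCh38, so a bound and the gene's own end should be close. Exons, stop codons and UTRs were not assigned, since no hg19 annotation was used here.

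**Figure D1:**
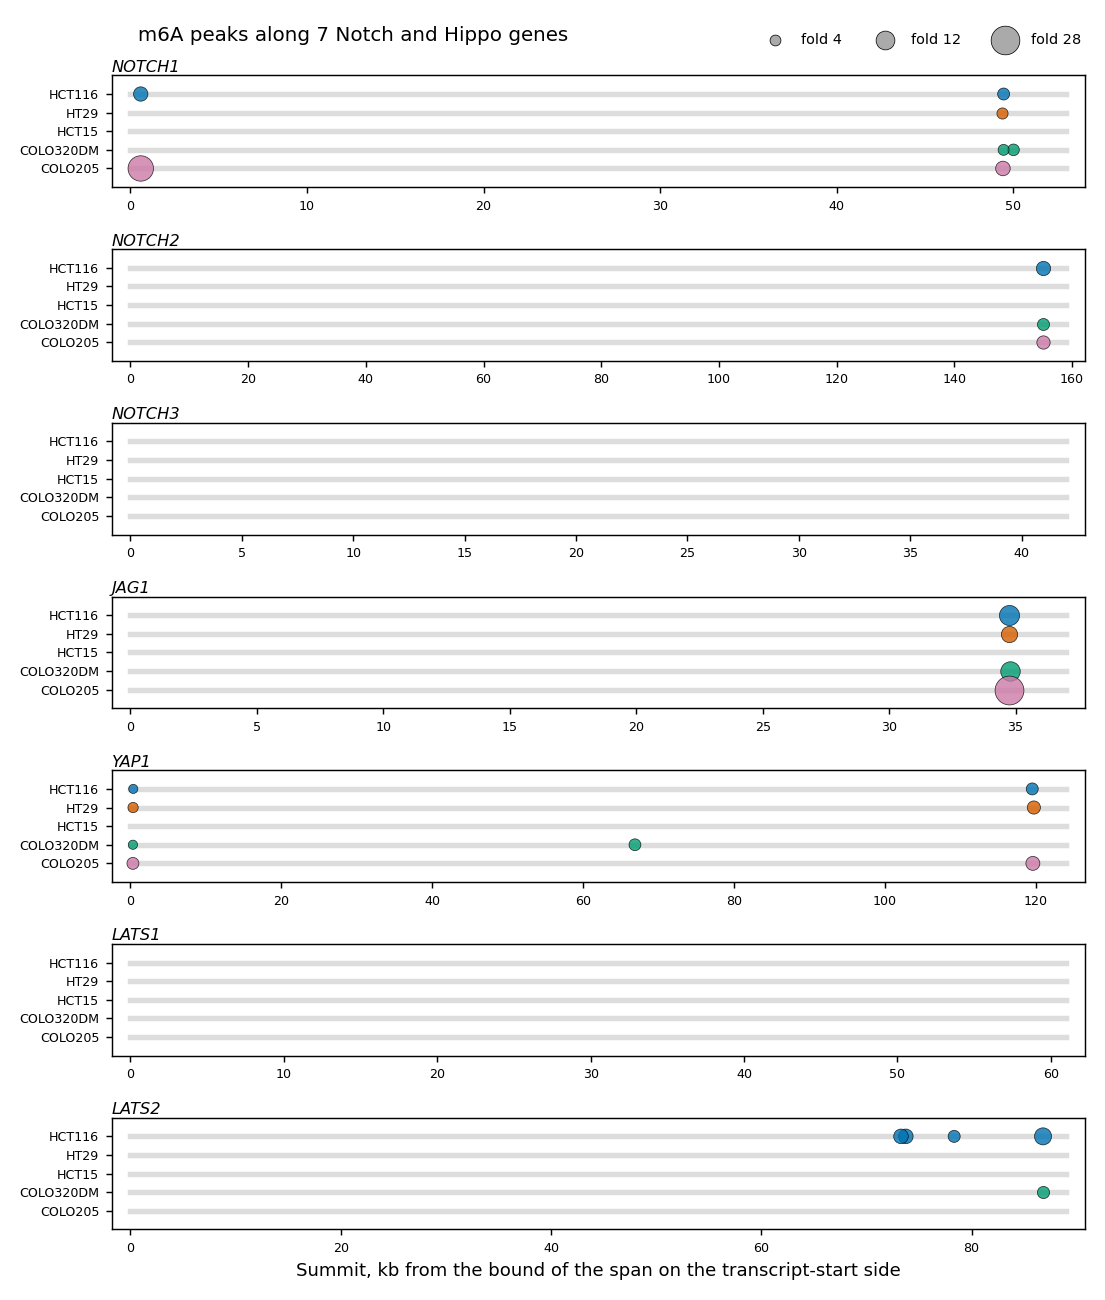
Summits of the 27 peaks in kb from the transcript-start bound of each gene's span (horizontal axis), with 1 row per cell line and the area of each circle in proportion to the fold over local background. NOTCH3 and LATS1 and every HCT15 row are empty, JAG1 has 1 position in 4 lines, and LATS2 has 4 peaks in HCT116.

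Overlapping peaks of different lists merged into 13 regions on these genes. Of these, 3 were held by each of the 4 long lists (all lists but HCT15), 1 by 3 lists, 3 by 2 lists and 6 by 1 list, so 4 of 13 were in 3 or more. Over all 22315 regions of the series, 6.87% were held by each of the 4 long lists, 18.1% by 3 or more lists and 64% by 1 list. The 3 regions in the 4 long lists were on JAG1, on NOTCH1 towards its end and on YAP1 at its start. With the HT29 list left out, a NOTCH2 region joined them.

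JAG1, a ligand of the NOTCH receptors, carried the highest fold of any of the 7 genes in each of the 4 long lists. Its only region was on chromosome 20 from 10620082 to 10620444, with summits 2.23 to 2.25 kb from the transcript-end bound. The fold, as the authors' caller gave it, was 28.4 in COLO205, 13.7 in HCT116, 12.9 in COLO320DM and 9.03 in HT29. Ranked by −log10 p, the JAG1 peak was number 8 of the COLO205 list, number 16 in HCT116, number 78 in COLO320DM and number 258 in HT29. It was thus among the 917 strongest peaks, as many as HCT15 has in all, in each long list. That class is 9.74% of the HCT116 list, 10.3% of HT29, 10.4% of COLO320DM and 9.17% of COLO205. The peaks were wide, at 363 nt in HCT116, 318 nt in COLO320DM, 298 nt in COLO205 and 239 nt in HT29, against list medians of 114 to 129 nt.

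The JAG1 folds rested on few input fragments. IP reads over a summit and the local input behind it were recovered from each deposited fold and −log10 p. The JAG1 summit had 55 IP reads in HCT116, 45 in COLO205, 39 in HT29 and 37 in COLO320DM. Its background was set by 5 input fragments over the summit in HCT116 and in HT29 and by 3 in COLO320DM. In COLO205 it was set by 15 fragments in the surrounding 1 kb, which equal 1.13 fragments over the summit. With the background held fixed, the 95% Poisson interval of the COLO205 fold, 20.9 to 37.8, lay above those of HCT116 (10.4 to 17.8), COLO320DM (9.20 to 17.7) and HT29 (6.49 to 12.3). When the counting error of the input was added, the COLO205 interval of 16.7 to 45.4 overlapped the 5.18 to 36.3 of HCT116, the 4.06 to 37.1 of COLO320DM and the 3.19 to 25.7 of HT29. On these wider intervals, which are conservative, no line was set apart by its JAG1 fold.

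Scaled to library depth, the order of the lines for JAG1 was not that of the fold. Scaled values are CPM, counts for 1000000 reads of the recovered depth. JAG1 had an IP signal of 39.9 CPM in HCT116, 25.1 in COLO320DM, 18.3 in HT29 and 15.1 in COLO205. The local input was 0.208 CPM in COLO205, against 1.32 in COLO320DM, 1.61 in HT29 and 2.23 in HCT116. COLO205 thus combined the highest fold with the lowest IP signal and the lowest local input. The COLO205 input is a mean over 1 kb, and those of the other lines are counts over the summit. In such bulk libraries fewer expressing cells, less RNA per cell, library depth and the window used cannot be told apart. From the lowest line to the highest, JAG1 input ranged over 10.7-fold and the IP signal over 2.65-fold. The input ranged more widely than the IP signal in all 3 regions that the long lists share here, as in 92.4% of the 1356 regions with 1 peak in each long list and none in HCT15. The same position of COLO205 was common across the series. Among those 1356 regions, COLO205 had the highest fold in 48.4%, the lowest local input in 78.4% and the lowest IP signal in 85.8%. On JAG1, NOTCH1 and YAP1 it had the highest fold and the lowest local input in all 3 regions, and the lowest IP signal in 2. HCT116 had the highest IP signal in these 3 regions, and in 48.9% of the 1356. The highest IP signal was in COLO320DM in 47.9% of the 1356, in HT29 in 1.99% and in COLO205 in 1.18%. The recovered IP depth ran the other way, at 1.38 M reads in HCT116, 1.47 in COLO320DM, 2.13 in HT29 and 2.99 in COLO205. What part of the order of the lines for JAG1 comes from this scaling was not tested.

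**Figure D2:**
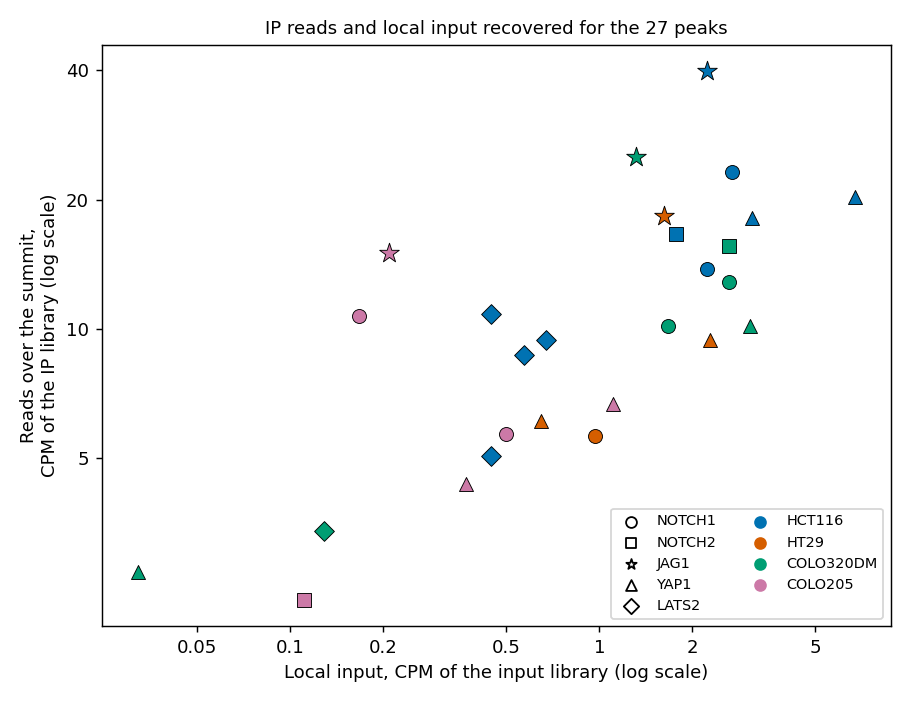
IP reads over the summit in CPM (vertical, log scale) against local input in CPM (horizontal, log scale) for the 27 peaks, with symbols for genes and colours for cell lines. The JAG1 stars lie at 15.1 to 39.9 CPM of IP signal, and the COLO205 star lies to the left of the other 3, at an input of 0.208 CPM.

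NOTCH1 is a receptor of the pathway that is active in intestinal crypts, and it had 7 peaks in 3 regions. On the transcript-end side, the region on chromosome 9 from 139391504 to 139391719 was held by the 4 long lists, 3.54 to 3.64 kb from the bound. The fold there was 7.23 in COLO205, 4.90 in HCT116, 4.25 in HT29 and 4.10 in COLO320DM. IP reads numbered 17, 19, 12 and 19 in the same order. The Poisson intervals overlapped even with the background held fixed, from 2.36 at the lowest in HT29 to 11.3 at the highest in COLO205. COLO320DM had a further peak of 73 nt from 139390920 to 139390992, over 15 IP reads, at a fold of 4.63.

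At its start, NOTCH1 had a peak in HCT116 and COLO205 and none in HT29, HCT15 or COLO320DM. The region ran from 139440297 to 139440486, with both summits about 0.58 kb inside the bound and 2 nt apart. Each summit had 32 IP reads, but the fold was 22.04 in COLO205 and 7.03 in HCT116. The local background fitted 12 input fragments in 1 kb in COLO205, equal to 0.9 fragments over the summit, and 6 fragments over the summit in HCT116. Each value also fits a whole number of fragments in a wider window. Scaled, that input was 0.166 CPM in COLO205 and 2.68 CPM in HCT116. The IP signal was 23.2 CPM in HCT116 and 10.7 CPM in COLO205, the reverse of the order of the folds. With the counting error of the input included, the fold intervals of 12.3 to 36.7 in COLO205 and 2.53 to 19.6 in HCT116 overlapped. Wider windows would hold more fragments and give narrower intervals, for which the overlap was not checked. The ratio of the folds, 3.14, was at or above that of 99.4% of the 511 regions held by these lists alone with 1 peak each. The median ratio of those regions was 1.32. The peak was number 62 by −log10 p in COLO205 and number 796 in HCT116.

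YAP1, the coactivator that the Hippo kinases restrain, also had a peak at its start, and there it was in all 4 long lists. The region on chromosome 11 from 101981224 to 101981425 had summits 0.323 to 0.368 kb inside the bound. In contrast to the start of NOTCH1, its fold was low, with 4.87 in COLO205, 3.60 in HT29, 2.89 in COLO320DM and 2.83 in HCT116. In its own list this put it at the percentile of 31.7 in COLO205, 5.65 in HT29, 7.0 in COLO320DM and 2.49 in HCT116. IP reads were not few, with 28 in HCT116, 20 in HT29, 20 in COLO205 and 15 in COLO320DM. The local input was the highest under any of the genes' peaks in each of these lines, at 6.69 CPM in HCT116, 3.07 in COLO320DM, 2.27 in HT29 and 1.11 in COLO205. The COLO320DM peak was close to the threshold of the list, with a −log10 q of 1.41. With the counting error of the input, its fold interval of 0.910 to 9.13 included no enrichment. The lists give no strand, and in GRCh38 the divergent transcript YAP1-DT overlaps the first 0.01 kb of YAP1.

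The start windows of NOTCH1 and YAP1, which had a peak near their start, are shown beside those of NOTCH2 and JAG1, which had peaks near their end only. Each runs over 30 bases, from 15 before the first base of the RefSeq gene, with that base in capitals, as DNA of the transcript's strand. The antibodies used against m6A also bind m6Am, a mark of the first transcribed base where that base is an adenosine.
NOTCH1: tcgactctgagcctcActagtgcctcggcc
YAP1: gaggcgagtttctgtCtcagtcgggcgcag
NOTCH2: gcggaaggacacacgAggctgcttcgttgc
JAG1: ccggccgctgctgccAgacgggctctccgg
These are RefSeq sequences of GRCh38.p14, at chr9:136546034-136546063 (minus strand), chr11:102110432-102110461 (plus strand), chr1:120069648-120069677 (minus strand) and chr20:10673985-10674014 (minus strand). The annotated first base was A in NOTCH1, NOTCH2 and JAG1 and C in YAP1, and it is A in 44.4% of the 35116 windows of the table. The peaks are on hg19, so their distance from these bases was not measured. GGACT, a common form of the m6A consensus, was in 0 of the 8 windows of the 7 genes (LATS1 has 2) over the 50 bases from the annotated first base on, on either strand. The bases before it were not searched, and in NOTCH2 the letters GGAC stand among those printed. GGACT is in 4.90% of all windows on the transcript's strand and in 4.91% on the other. The shorter GGAC, which GGACT contains, was on the transcript's strand of the 50 bases searched in NOTCH3 only, against 18.9% of all windows. On the other strand it was in JAG1 and LATS2, against 17.6%. Of the 8 windows of 300 bases, 7 had 67.7% to 78.3% G or C, against a median of 58.7% over all windows, and the remaining LATS1 window had 30.3%.

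On the end side of YAP1 the lines did not share 1 position. HCT116 and COLO205 had overlapping peaks, from 102100444 to 102100608 and from 102100542 to 102100639, with summits 80 nt apart. Their folds were 4.90 and 6.65, over 25 and 13 IP reads. The HT29 peak, from 102100698 to 102100782, had 13 IP reads and a fold of 5.90. It began 58 nt beyond the COLO205 peak and overlapped neither. The summits of the 3 lines spanned 211 nt. COLO320DM had no peak there, and had 1 from 102047801 to 102047901, 57.1 kb from the transcript-end bound. That peak rested on 4 IP reads and on 1 input fragment within 1 kb, with a fold of 4.77 and an interval of 2.0 to 10.7 from the IP reads alone.

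NOTCH2, a receptor that acts with NOTCH1 in the crypt, had 1 region, on chromosome 1 from 120457864 to 120457989. The summits of HCT116, COLO320DM and COLO205 lay within 1 nt of each other, 3.92 kb from the transcript-end bound. Of the 609 regions with 1 peak in each of these lists and none in the others, 1.15% had summits as close, and the median spread was 30 nt. The fold was 6.96 in HCT116, 6.01 in COLO205 and 4.93 in COLO320DM, and the intervals overlapped. IP reads numbered 23 in HCT116 and in COLO320DM and 7 in COLO205. The COLO205 background came from 8 input fragments in 1 kb, against 53 in HCT116 and 82 in COLO320DM. The NOTCH2NL genes carry copies of the 5′ part of NOTCH2, at the other end from this region, and how the authors placed reads with several matches is not given in the sources used here.

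In the regions held by the 4 long lists summits lay further apart than in NOTCH2. The spread was 17 nt for JAG1, 45 nt at the start of YAP1 and 104 nt on the end side of NOTCH1, against a median of 34.5 nt over the 1356 regions with 1 peak in each long list. Of those regions, 84.1% had summits at least as close as the NOTCH1 ones. In NOTCH1 the HT29 summit stood 65 to 104 nt nearer the start of the transcript than those of the other 3 lines.

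**Figure D3:**
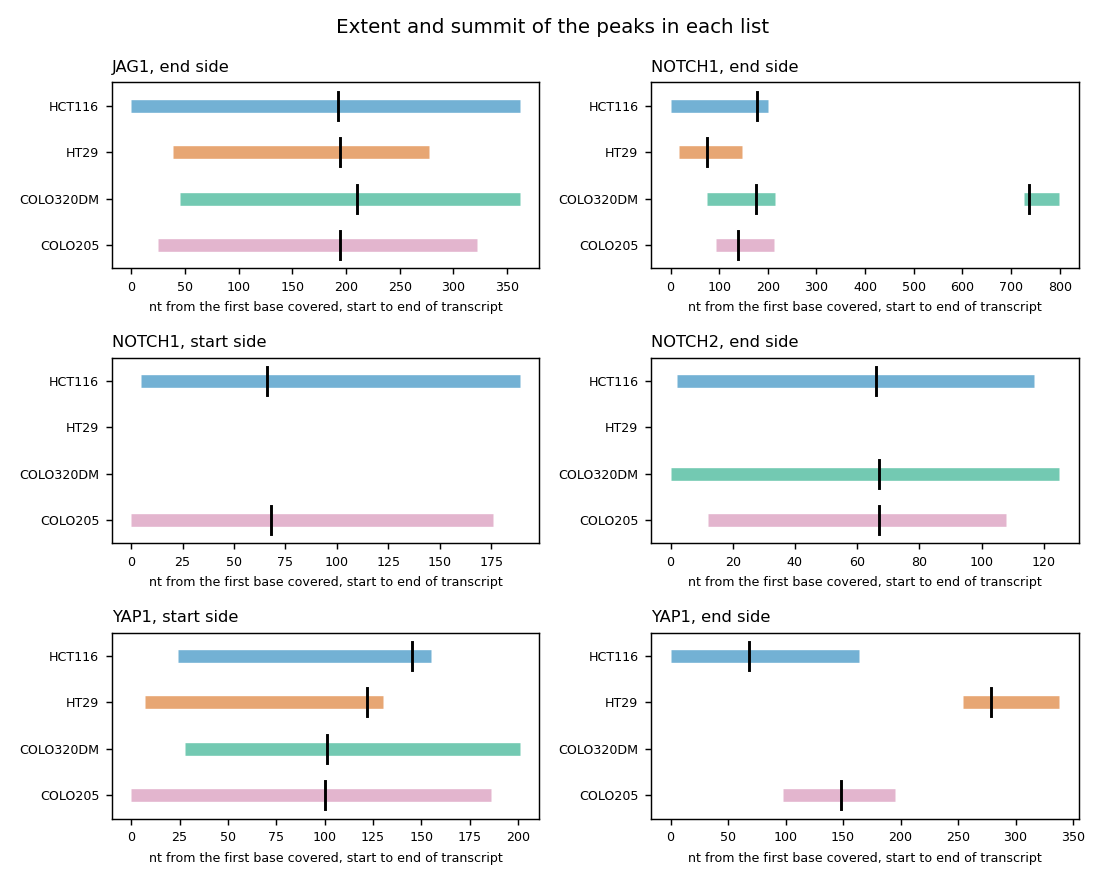
Extent (bars) and summit (black lines) of the peaks on 4 genes in each of the 4 long lists, in nt from the first base covered, in the direction of the transcript. NOTCH2 summits coincide within 1 nt, NOTCH1 summits on the end side spread over 104 nt, and the HT29 peak at the end of YAP1 overlaps neither of the others.

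LATS2, a Hippo kinase, had peaks in HCT116 and COLO320DM only. The region nearest its end, on chromosome 13 from 21549115 to 21549272, was held by both, with summits 34 nt apart and 2.20 to 2.23 kb from the bound. Its fold was 9.90 with 15 IP reads in HCT116 and 5.05 with 5 IP reads in COLO320DM. With the background held fixed, the intervals of 5.81 to 15.9 and 2.21 to 10.7 overlapped. The HCT116 background was 1 input fragment, and with its counting error the interval was 2.12 to 25.3. HCT116 had 3 more LATS2 peaks, which no other list held. They ran from 21557636 to 21557737, from 21562228 to 21562303 and from 21562639 to 21562776, with folds of 4.95, 7.28 and 7.28 and 7, 12 and 13 IP reads. Local input for the 4 HCT116 peaks was 0.446 to 0.669 CPM, lower than the 1.77 to 6.69 CPM under the other HCT116 peaks of these genes. The peak with 7 IP reads also rested on 1 input fragment and had a −log10 q of 2.95. Its interval with the counting error of the input, 0.861 to 15.2, reached below 1. LATS1, the related kinase, had no peak in its span.

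The nearest peaks outside the spans lay on the start side of LATS1 and NOTCH2. HCT116, HT29 and COLO205 each had a peak between 150049775 and 150050037 on chromosome 6, with summits 9.84 to 9.99 kb beyond the LATS1 bound and folds of 6.81, 7.98 and 5.34. HT29 had a peak from 120621161 to 120621235, 8.21 kb beyond the NOTCH2 bound, over 5 IP reads, at a fold of 5.49. The peaks nearest to a bound from within were those at the start of YAP1 and NOTCH1.

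**Figure D4:**
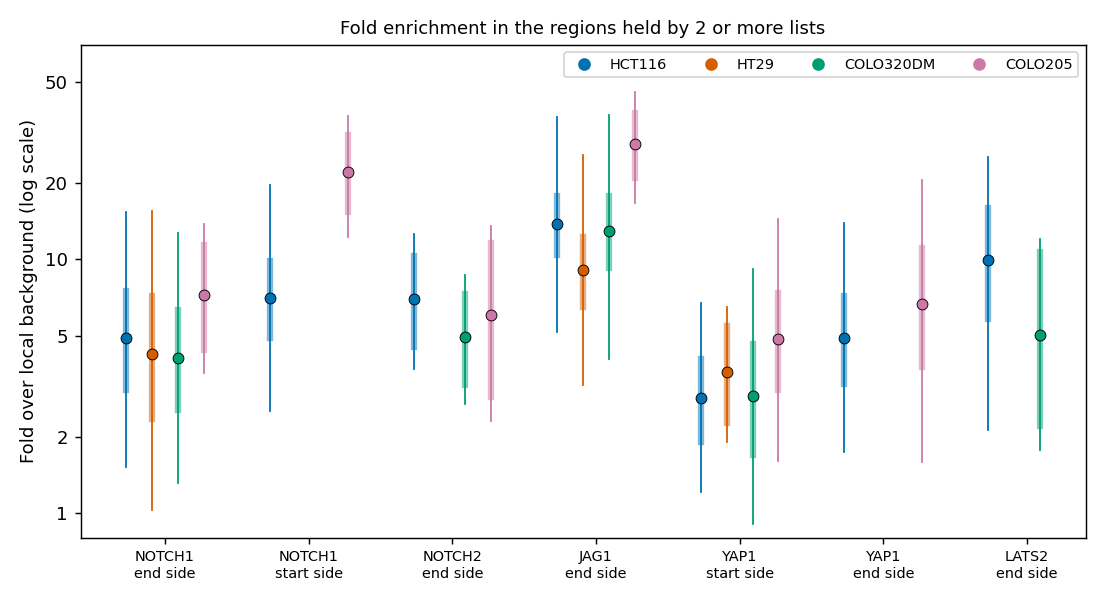
Fold over local background (log scale) in the 7 regions held by 2 or more lists, 1 point per cell line. Thick bars are 95% Poisson intervals from the IP reads with the background held fixed. Thin bars add the counting error of the input in the narrowest window that fits. COLO205 stands highest on JAG1 (28.4) and at the start of NOTCH1 (22.04), where the thin bars overlap those of the other lines.

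The peaks of the 7 genes can be set beside their lists. The fold was above the list's median in 6 of 10 peaks in HCT116, 2 of 4 in HT29, 1 of 7 in COLO320DM and 5 of 6 in COLO205. The median fold of these peaks was 6.99, 5.08, 4.77 and 6.94 in that order, and that of the lists was 5.08, 5.67, 5.23 and 5.65. The value for COLO320DM depends on the threshold: at a −log10 q of at least 5 its 2 remaining peaks had a median of 8.92, against 6.68 over the list. Local background came to 1 input fragment or more, called input-covered here, under all 10 peaks in HCT116 (exact 95% interval 69.2% to 100%), against 58.1% of the list, and for all 4 in HT29 (39.8% to 100%), against 39% of the list. It held for 5 of 7 in COLO320DM (29.04% to 96.3%), against 61.8%, and for 4 of 6 in COLO205 (22.3% to 95.7%), against 51.8%. With 1 input threshold, in CPM, for all lines it held for 2 of 6 in COLO205 (33.3%), against 25.8% of the list. These intervals are wide, and peaks of 1 gene share its RNA. The peaks below 1 fragment were the start of NOTCH1 and NOTCH2 in COLO205 and the inner YAP1 peak and LATS2 in COLO320DM.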

How the data were processed

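Per the submitters' processing notes, tools were cutadapt, FastQC, BWA and MACS2 and the build hg19, without versions or parameters. About 300 µg of total RNA was cut to about 100 nt and 10% kept as input, per the labels' protocols. The authors' deposited lists give each peak's fold (a ratio of summit to local background), −log10 p, −log10 q and a score that was not used. Positions are printed counting from 1.

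IP reads and background were recovered from fold and −log10 p as MACS2 computes them (pseudocount 1, Poisson tail). All peaks of the 4 long lists gave whole reads within 0.001 of −log10 p, and each of the 27 had 1 solution. Background per input fragment, and a genome of 2.7 Gb assumed as the caller's default, gave IP depths of 2.99 M (M for mega) for COLO205, 2.13 for HT29, 1.47 for COLO320DM and 1.38 for HCT116. Input depths were 5.41, 3.10, 2.28 and 2.24 M in that order. That the control was the line's input is an assumption. The caller takes the highest of several windows as background, so the window differs between lines. Where whole fragments fitted more than 1 window, the narrowest was taken, which gives the fewest fragments and the widest interval. HCT15 was not recovered, having no peak here. On 2 sets of 1000 peaks simulated with these same formulas, 100% of reads were recovered. This checks the inversion only, not how the authors' caller worked. Intervals cover counting error only.

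Peaks overlapping by at least 1 nt were merged on chromosomes 1 to 22, X and Y (bedtools 2.31.1 gave the same on simulated intervals). The 7 genes, the spans, the list of other genes and the rule for named peaks were chosen with earlier results of these data known. For each gene the strongest peak by −log10 p in each list, every region in 3 or more lists and peaks within 10 kb of a span are named. Under these rules and the comparison of lines, all 27 peaks are described. A list of other Notch and Hippo genes was not analysed here, for want of an hg19 annotation. Computations used scipy 1.17.1, pandas 2.3.3, numpy 2.4.6 and Python 3.11.15, and figures matplotlib 3.10.9.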

Additional observations from a re-analysis of the deposited data

How the results depend on the processing

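At a −log10 q of at least 5, HT29 kept 2 peaks on the 7 genes and COLO320DM 2, the input-covered share in COLO320DM became 100%, and 1 region, that of JAG1, was left in the 4 long lists. With a pseudocount of 0 the share became 100% in COLO320DM and in COLO205, but 0 of the 27 peaks then gave whole reads within the tolerance. Leaving out each list in turn gave 3 to 4 regions common to the remaining long lists. This does not measure stability, since leaving out a long list drops a requirement and HCT15 was never part of it. The count could therefore hardly fall. The other 80 of 86 values moved by at most 1.5 times (counts) or stayed within their 95% intervals (exact binomial for shares, order statistics for median folds), at the −log10 q of at least 5 and under a fold of at least 4, any overlap with the span, reciprocal overlap of 50%, 1 input threshold for all lines, ranking by fold and, chosen after seeing the data, spans widened by 10 kb. Those intervals are wide (2.89 to 12.9 for the median fold in COLO320DM), since each list has 10 or fewer of these peaks. Within them, the median fold at a −log10 q of at least 5 became 7.47 in HT29 and 8.92 in COLO320DM, and the input-covered share in COLO205 became 33.3% with 1 input threshold for all lines. With reciprocal overlap of 50% the end region of NOTCH1 was no longer common to the 4 lists, and with a fold of at least 4 the start of YAP1 was not. Some of the 80 values could not change. Of the 17 strongest peaks ranked by fold, only 8 came from a gene with more than 1 peak in that list. Of these, 7 stayed the same, and they are folds of single peaks, not counts, shares or median folds. The 1 input threshold was that of 1 fragment in HCT116, so the share there was fixed. No paired analysis was possible because each line has 1 IP library.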
